A study of Astatotilapia calliptera and Pundamilia nyererei and Oreochromis niloticus with 31 samples.

Results

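Pao retrotransposons were followed here through the small RNAs (sRNAs) that map to them in Lake Malawi cichlids. The members are all entries of the curated transposable element (TE) annotation whose name begins with Pao: 83 of the 557 entries of the table, from 43 numbered families. Of these, 41 entries stand for the internal region of an element (INT), 40 for its long terminal repeat (LTR), and 2, Pao-31 and Pao-38, for an undivided element. A total of 40 families have both an INT and an LTR entry, and Pao-47 has only an INT entry. The table holds 14 sRNA libraries from wild-type fish: 4 from testes of Tropheops sp. 'mauve' (Tma), 2 from testes of Maylandia zebra (Mze), and 4 from testes, 3 from ovaries and 1 from muscle of Astatotilapia calliptera (Aca). According to the methods of the study, replicates are different individuals of similar size, and no group differs from another by a drug, a mutation or a transgene. Per these methods, the Mze fish were dominant adult males from a commercial supplier, while Aca and Tma fish were grown in tanks with their own species. In comparisons with Mze, species and origin therefore cannot be told apart. No library from Tma or Mze ovaries is analysed here, and some ovary libraries were left out by the authors after quality control.

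Pao (or Bel/Pao) elements are LTR retrotransposons, named after an element of the silkworm. Their internal region encodes a Gag protein, which forms the particle, and a Pol polyprotein with protease, reverse transcriptase, RNase H and integrase, with which the element copies its RNA into DNA and inserts the copy. An identical LTR lies at each end of a new copy, and the LTRs carry the signals that start and end transcription. In animal germlines, PIWI-interacting RNAs (piRNAs), the sRNAs bound by Piwi proteins, guide the silencing of such elements. Recombination between both LTRs of a copy removes the internal region and leaves a solitary LTR in the genome.

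From reads of 24 to 35 nucleotides, the authors made 1 value per entry and library with the regularised log (rlog) transformation, which gives log2 units. They are centred so that the typical entry is equal between libraries, and they give a total per entry, neither per copy nor per length. Reads of Tma and Mze were mapped to the Aca genome, so a lower value there cannot be told apart from poorer mapping. The table holds no genes, so the labelled organs could not be checked against marker genes. It holds no counts, so the number of reads behind each value is unknown, though the study gives read totals per library. The libraries of Tma testes replicates 1 and 3 stood apart by their likeness. The SD of their differences over all entries was 0.0505 on the log2 scale, against 0.122 to 0.364 for every other pair of libraries of 1 group. They were kept as separate libraries. Counts of Pao calls with Tma, and some named results, are also given with their average counted as 1 library. Levels, shares and SDs of Tma testes count them as separate libraries.

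In all gonads, the median level of Pao INT entries lay somewhat above that of all entries. The median rlog level of the 41 INT entries was 11.01 in Tma testes, 11.18 in Mze testes, 11.22 in Aca testes and 11.24 in Aca ovaries, and it was 10.60 in Aca muscle. Over all 557 entries, LTR entries included, the medians were 10.76, 10.75, 10.79, 10.75 and 10.57 in the same order. The 40 LTR entries lay lower, with median rlog levels of 7.98 in Tma testes, 7.96 in Mze testes, 7.95 in Aca testes, 7.84 in Aca ovaries and 7.78 in Aca muscle. Since an LTR is shorter than an internal region and the values are not per length, these levels do not say which part yields more sRNA per base.

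**Figure D1:**
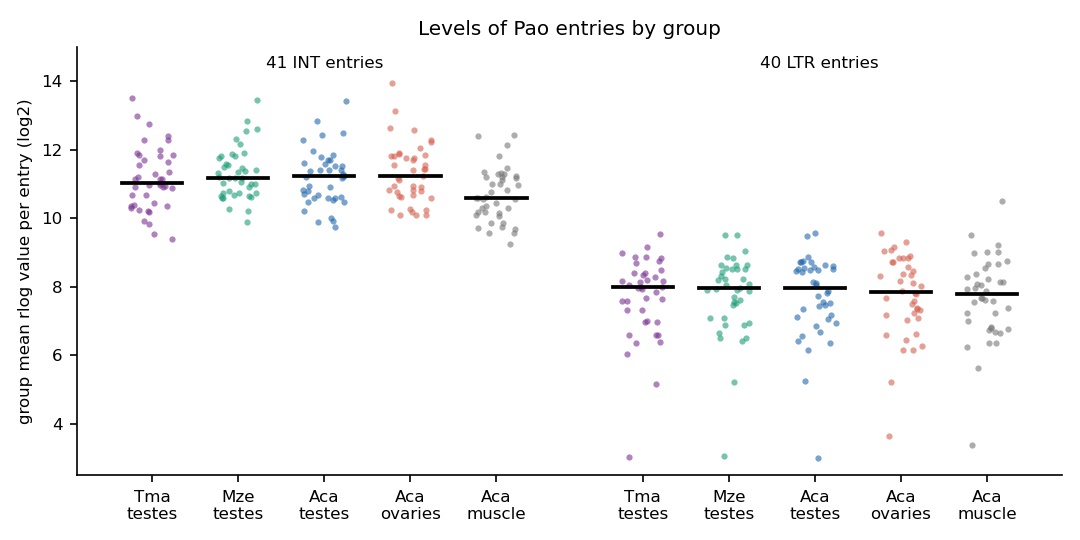
Group mean rlog values (log2, vertical axis) of the 41 INT and the 40 LTR entries of Pao in Tma testes, Mze testes, Aca testes, Aca ovaries and Aca muscle. Each point is an entry and each bar the median over entries; the INT medians lie between 11.01 and 11.24 in gonads and at 10.60 in muscle, and the single lowest point of each LTR column is Pao-18 LTR.

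The highest Pao entry of each gonad group was Pao-40 INT. It was at 13.57, 13.51, 13.57 and 13.40 in Tma testes, at 13.47 and 13.45 in Mze testes, at 13.32, 13.51, 13.36 and 13.50 in Aca testes, at 13.92, 13.85 and 14.03 in Aca ovaries, and at 12.39 in muscle. On the deposited scale the ovaries were the highest and the muscle library the lowest. By its mean over the 13 gonad libraries the entry was number 8 of 557. Pao-29 INT and Pao-21 INT followed, at number 16 and number 34, with group means of 12.83 to 13.13 and of 12.44 to 12.75 in gonads.

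At the other end stood the LTR entries of Pao-18, Pao-40 and Pao-20. Pao-18 LTR lay between 2.95 and 3.10 in all 10 testis libraries and at 3.96, 3.40 and 3.56 in ovaries. The ovary values are above the minimum for a test, 3.32 in log2 units, but the mean over the libraries of each comparison is below it, so this is the single Pao entry without a test. Pao-40 LTR had group means of 5.16 to 5.25 in gonads. The family with the highest INT entry therefore also has one of the lowest LTR entries, and their difference reached 8.35 in Tma testes, 8.25 in Mze testes, 8.17 in Aca testes and 8.71 in Aca ovaries.

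On the linear scale, Pao entries made up a like share of the summed TE values in all testes. The share was 10.03% ± 0.0821 in Tma testes (SD, n = 4), 10.3% ± 0.759 in Mze testes (SD, n = 2) and 10.2% ± 0.136 in Aca testes (SD, n = 4). In Aca ovaries it was 7.95%, 8.81% and 10.1%, and in the muscle library 3.54%. In Aca, NA-DNA-22, an unclassified DNA transposon, was high where this share was low. It held 1.45% to 1.85% of the summed value in Aca testes, 24.4%, 20.9% and 9.89% in the 3 ovary libraries and 37.6% in muscle. Without it the Pao share was 10.4% in Tma testes, 10.9% in Mze testes, 10.4% in Aca testes, 10.9% in Aca ovaries and 5.68% in muscle. LTR entries gave 7.24% to 8.57% of the summed Pao value in gonads and 11.8% in muscle.

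Between libraries of the same group, Pao entries had a median spread above that of all entries. The median SD over libraries of a group was 0.0946 for Pao entries in Tma testes, 0.123 in Mze testes, 0.176 in Aca testes and 0.217 in Aca ovaries, beside 0.0699, 0.113, 0.123 and 0.167 over all entries. The entry that varied most among ovaries was Pao-18 INT, with an SD of 0.819. Pao-41, looked at after its values were seen, stood out in 1 fish: its INT entry was at 11.75, 11.81 and 13.12 and its LTR entry at 8.72, 8.50 and 9.98 in ovary replicates 1, 2 and 3.

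The first comparison asked how the organs of 1 species differ. In Aca, 7 Pao entries were higher and 11 lower in testes than in ovaries, of 82 tested, by limma with Benjamini-Hochberg adjusted p under 0.05 over all 554 entries tested. Over all entries tested, 42.1% were called (20.8% higher, 21.3% lower), so the Pao share of 22.0% was below the background. Of the INT entries, 4 rose and 9 fell of 41 (31.7%), against 56.2% called among 121 INT entries of other LTR elements. Of the LTR entries, 3 rose and 1 fell of 39 (10.3%), against 29 of 116 other LTR entries. The median difference of testes minus ovaries was −0.05 over Pao and −0.01 over all entries. In these whole organs, fewer germ cells and less sRNA per cell cannot be told apart.

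The largest differences were in 2 INT entries that were lower in testes. Pao-18 INT was at 10.91, 10.98, 10.69 and 11.02 in Aca testes, against 12.82, 11.67 and 13.25 in Aca ovaries. Every ovary library lay above every testis library, and ovary replicate 2 was the closest to testes. The difference was −1.68 ± 0.30 (SE), a 3.20-fold lower value in testes, with adjusted p = 0.00198 by limma.

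Pao-10 INT was at 9.87, 8.98, 9.83 and 10.35 in Aca testes, against 11.09, 11.05 and 11.24 in Aca ovaries. Here the spread was among the testes, with replicate 2 lowest, and the ovaries lay close together. The difference was −1.37 ± 0.26 (SE, adjusted p = 0.00245 by limma). Its LTR entry was at 7.65, 6.80, 7.94 and 7.70 in testes, against 8.17, 8.14 and 8.20 in ovaries. That difference of −0.64 ± 0.24 (SE) did not pass the test (adjusted p = 0.052 by limma).

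Pao-17 INT and Pao-25 INT were lower in testes by less. Pao-17 INT was at 9.99, 10.11, 9.85 and 10.12 in testes, against 10.53, 10.80 and 10.56 in ovaries (difference −0.61 ± 0.11, adjusted p = 0.00214 by limma). For Pao-25 INT the values were 11.10, 11.26, 10.88 and 11.42 in testes and 11.60, 11.63 and 12.02 in ovaries (difference −0.58 ± 0.15, adjusted p = 0.0114 by limma). In neither entry did the organs overlap. The other 7 entries that fell had differences of −0.28 to −0.58, among them Pao-40 INT, the highest Pao entry, at −0.52 ± 0.09 (SE, adjusted p = 0.0016 by limma). With scaling to all 24 to 35 nucleotide reads, Pao-17 INT, Pao-25 INT and these 7 entries changed sign.

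Higher in testes were Pao-12 LTR, Pao-8 INT, Pao-26 LTR and Pao-22 INT. Pao-12 LTR was at 7.12, 6.88, 7.07 and 7.14 in testes, against 6.10, 6.66 and 6.57 in ovaries (difference 0.61 ± 0.16, adjusted p = 0.013 by limma). Pao-8 INT was at 10.45, 10.48, 10.68 and 11.20 in testes, against 10.23, 10.09 and 9.97 in ovaries (difference 0.60 ± 0.18, adjusted p = 0.0209 by limma). The organs did not overlap in these 2 entries. Without ovary replicate 3 the difference of Pao-8 INT was 0.54 with adjusted p = 0.0723.

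Pao-26 LTR (difference 0.49 ± 0.17, adjusted p = 0.0465 by limma) and Pao-22 INT (difference 0.47 ± 0.17, adjusted p = 0.0449 by limma) overlapped between organs. Pao-26 LTR was at 7.82, 7.98, 8.11 and 7.57 in testes, against 7.67, 7.37 and 7.11 in ovaries. Its call was lost without testis replicate 1, 2 or 3 or without ovary replicate 2 or 3, with differences of 0.35 to 0.51 and adjusted p up to 0.155. Pao-22 INT was at 11.62, 11.66, 12.01 and 11.56 in testes, against 10.90, 11.22 and 11.60 in ovaries. It passed the test in 1 of the 7 fits that each left out a library, that without ovary replicate 3, and in the other 6 the differences were 0.30 to 0.52 with adjusted p up to 0.166.

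**Figure D2:**
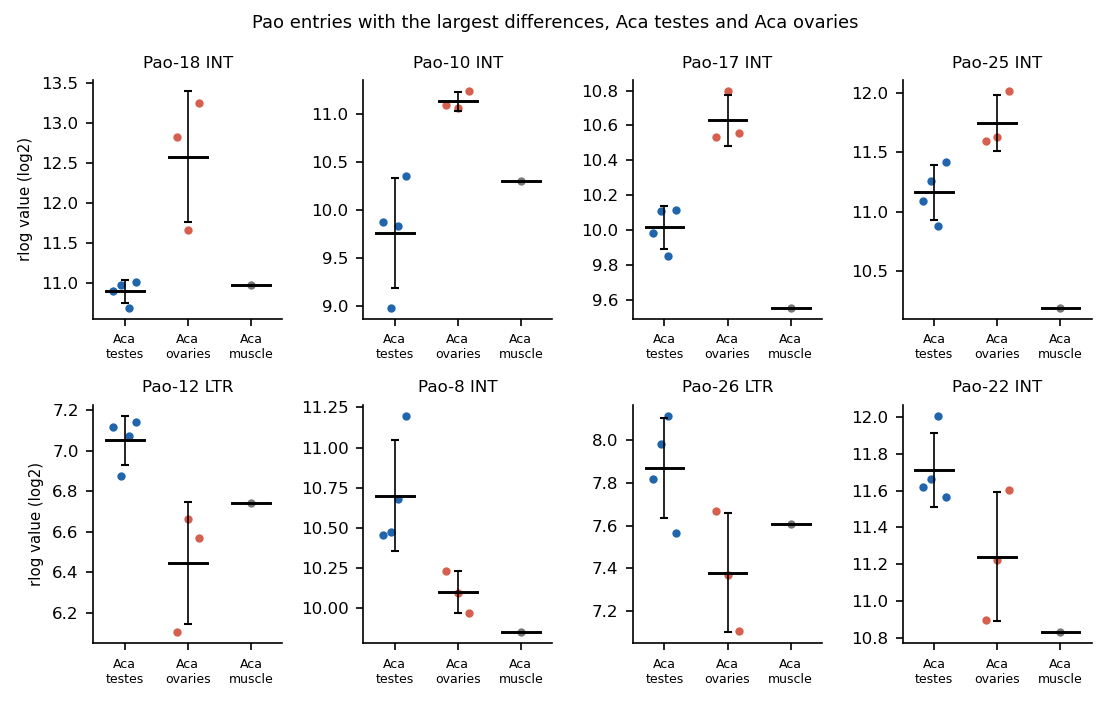
rlog values (log2, vertical axes, each with its own range) of the 4 Pao entries with the largest called differences in each direction, in Aca testes, Aca ovaries and Aca muscle. Points are libraries, bars are means and whiskers are SDs; the upper row holds the entries lower in testes (under scaling to all 24 to 35 nucleotide reads Pao-17 INT and Pao-25 INT turn to differences of 0.75 and 0.78), the lower row those higher in testes, and Pao-26 LTR and Pao-22 INT overlap between organs.

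The direction of the Pao calls between organs depended on the scaling of the libraries. With each library scaled to its summed TE value, 32 Pao entries were called higher and 2 lower in testes, beside 267 higher and 28 lower of all 554 entries, whose median difference was 0.37. With scaling to all 24 to 35 nucleotide reads, 42 Pao entries were higher and none lower by limma, beside 304 higher and 1 lower of all entries, whose median was 1.35. At an unadjusted p under 0.05, 54 Pao entries were higher and none lower there, and 373 of all entries passed in either direction. All 7 entries that rose kept their call in both, while 9 of the 11 that fell changed sign in the second. Pao-18 INT and Pao-10 INT kept their sign, at −0.32 and −0.01, without passing the test there. Leaving out testis replicate 3 left 3 higher calls, and leaving out testis replicate 1, testis replicate 4 or ovary replicate 3 left 4. Of all entries, 286 had an unadjusted p under 0.05 with all libraries and 255 without testis replicate 3. Without testis replicate 1, testis replicate 4 or ovary replicate 3 these were 248, 263 and 258. At that p, 12 Pao entries were higher and 17 lower with all libraries, and 6 and 18 without testis replicate 3. Without testis replicate 1, testis replicate 4 or ovary replicate 3 there were 9 and 13, 10 and 14, and 7 and 17.

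The remaining comparisons asked how testes of different species differ. Between Mze and Aca testes, 6 Pao entries rose and none fell of 82 tested, beside 9.03% higher and 7.22% lower (16.2% in all) of the 554 entries. At an unadjusted p under 0.05, 9 Pao entries were higher and 6 lower, beside 187 of the 554 entries in either direction. The median difference was 0.04 over Pao and 0.02 over all entries.

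Both entries of Pao-20 were higher in Mze. Pao-20 INT was at 11.16 and 11.50 in Mze testes, against 10.63, 10.11, 10.46 and 10.65 in Aca testes. Pao-20 LTR was at 7.24 and 7.70 in Mze testes, against 6.56, 5.22, 6.63 and 6.24 in Aca testes. Neither overlapped, and the differences were 0.87 ± 0.17 for the INT entry (adjusted p = 0.0207 by limma) and 1.31 ± 0.37 for the LTR entry (adjusted p = 0.0497 by limma).

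Pao-44 INT was at 10.78 and 10.70 in Mze testes, against 10.06, 9.51, 10.07 and 10.001 in Aca testes (difference 0.83 ± 0.17, adjusted p = 0.0207 by limma). For Pao-14 INT the values were 12.39 and 12.26 in Mze testes and 11.90, 11.83, 11.68 and 11.70 in Aca testes (difference 0.55 ± 0.09, adjusted p = 0.016 by limma). Pao-11 INT and Pao-42 INT, named here because the count is small, were each higher by 0.49.

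With 2 Mze fish these calls were fragile. Leaving out Mze replicate 1 or Mze replicate 2 left no Pao call by limma, with 10 higher and 4 lower, or 6 higher and 5 lower, at an unadjusted p under 0.05, beside 157 or 143 of all 554 entries. The differences then were 0.70 to 1.03 for Pao-20 INT, 1.08 to 1.54 for Pao-20 LTR, 0.79 to 0.87 for Pao-44 INT and 0.48 to 0.61 for Pao-14 INT. Pao-20 LTR also missed the threshold without Aca testis replicate 1 (adjusted p = 0.0692) or 4 (adjusted p = 0.0742), and without Aca testis replicate 1 only 3 Pao entries were called higher. Without Aca testis replicate 2, 1 Pao entry was called lower. Of all 554 entries, 155 and 184 had an unadjusted p under 0.05 without Aca testis replicate 1 and 2, against 187 with all libraries. At that p, 10 Pao entries were higher and 3 lower without Aca testis replicate 1, and 9 and 9 without replicate 2. With all libraries there were 9 and 6. Scaling to the summed TE value gave 3 Pao entries higher and 2 lower, beside 34 higher and 67 lower of all entries. Scaling to all 24 to 35 nucleotide reads gave 2 higher and 40 lower, beside 9 higher and 314 lower of all entries, whose median was −0.37.

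Between Tma and Aca testes, 38 of 82 Pao entries differed, 17 higher and 21 lower in Tma. This share of 46.3% stands beside 42.4% of all entries (21.5% higher, 20.9% lower). INT entries made 9 of the rises and 12 of the falls, LTR entries 7 and 8, Pao-38 rose and Pao-31 fell. The median difference was −0.03 over Pao and 0.02 over all entries. With Tma replicates 1 and 3 averaged, 12 were called higher and 17 lower, all among the 38 (94 higher and 84 lower of all entries), and without Tma replicate 1 there were 11 higher calls. In that last fit 250 of all 554 entries had an unadjusted p under 0.05, against 282 with all libraries. At that p, 17 Pao entries were higher and 20 lower in it, against 18 and 23 with all libraries.

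Entries of Pao-27, Pao-20 and Pao-34 led the falls. Pao-27 INT was at 9.80, 10.004, 9.81 and 9.70 in Tma testes, against 10.72, 10.85, 10.89 and 10.86 in Aca testes. Its LTR entry was at 6.41, 6.32, 6.34 and 6.34 in Tma testes, against 7.10, 7.04, 7.33 and 7.28 in Aca testes. Both entries were lower in every Tma fish than in any Aca fish, by −1.001 ± 0.07 for INT (adjusted p = 3.75e-05 by limma) and by −0.83 ± 0.08 for LTR (adjusted p = 5.64e-05 by limma).

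Pao-20 INT was at 9.39, 9.71, 9.40 and 9.60 in Tma testes, against the Aca values given above, with no overlap (difference −0.94 ± 0.13, adjusted p = 0.000501 by limma). Its LTR entry, at 6.08, 6.05, 6.22 and 5.75 in Tma testes, lay within the range of Aca testes. Pao-34 LTR was at 6.54, 6.68, 6.48 and 6.66 in Tma testes, against 7.47, 7.34, 7.38 and 7.58 in Aca testes (difference −0.85 ± 0.08, adjusted p = 5.51e-05 by limma).

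Pao-10 INT and both entries of Pao-42 led the rises. Pao-10 INT was at 11.01, 10.81, 11.03 and 10.99 in Tma testes, against 9.87, 8.98, 9.83 and 10.35 in Aca testes (difference 1.2 ± 0.24, adjusted p = 0.00396 by limma). The same Aca libraries are the ones that lie below Aca ovaries in this entry, so both comparisons rest on them. In Mze testes it was at 10.59 and 11.25, also above all Aca testes, but the difference of 1.17 ± 0.34 from Aca did not pass the test (adjusted p = 0.0537 by limma).

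Pao-42 LTR was at 7.24, 7.47, 7.39 and 7.19 in Tma testes, against 6.49, 6.70, 6.42 and 6.67 in Aca testes (difference 0.75 ± 0.09, adjusted p = 0.00027 by limma). Pao-42 INT was at 11.63, 11.74, 11.64 and 11.57 in Tma testes, against 11.03, 11.13, 10.75 and 10.83 in Aca testes (difference 0.71 ± 0.09, adjusted p = 0.00027 by limma). INT and LTR of this family thus moved by nearly the same amount.

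Pao-23 LTR was at 7.62, 7.73, 7.53 and 7.72 in Tma testes, against 7.37, 7.18, 6.59 and 7.35 in Aca testes (difference 0.53 ± 0.16, adjusted p = 0.026 by limma). Its call was lost without Tma replicate 1, 2 or 4, with differences of 0.54, 0.50 and 0.51 and adjusted p of 0.0532, 0.0637 and 0.0627. The other named entries of this comparison kept their calls without any 1 library and with Tma replicates 1 and 3 averaged.

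Between Tma and Mze testes, 26 of 82 Pao entries differed, 5 higher and 21 lower in Tma. Of all entries tested 23.3% were called, 10.5% higher and 12.8% lower, and of the Pao entries 6.10% were higher and 25.6% lower. The median difference was −0.07 over Pao and 0.02 over all entries, and 12 of the 21 falls were in INT entries. Scaling to the summed TE value gave 7 Pao entries higher and 20 lower, beside 76 higher and 57 lower of all entries. With scaling to all 24 to 35 nucleotide reads, which moved the median of all entries to 0.38, 43 Pao entries were higher and 4 lower, beside 377 higher and 14 lower of all entries, and 7 of the 26 changed sign.

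Pao-20 had the largest difference between these species. Its INT entry was at 9.39, 9.71, 9.40 and 9.60 in Tma testes, against 11.16 and 11.50 in Mze testes, which is 3.49-fold lower in Tma (difference −1.80 ± 0.13, adjusted p = 0.000396 by limma). Its LTR entry was at 6.08, 6.05, 6.22 and 5.75 in Tma testes, against 7.24 and 7.70 in Mze testes (difference −1.45 ± 0.16, adjusted p = 0.00142 by limma). Aca testes lay between both in the INT entry.

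Pao-13 INT was at 9.83, 10.11, 9.86 and 9.91 in Tma testes, against 10.63 and 10.65 in Mze testes (difference −0.71 ± 0.09, adjusted p = 0.00208 by limma). Pao-27 INT, at the Tma values given above, was compared with 10.18 and 11.00 in Mze testes, which differ widely from each other (difference −0.76 ± 0.20, adjusted p = 0.0334 by limma). That call was lost with Tma replicates 1 and 3 averaged (adjusted p = 0.0688) and without any 1 of the 4 Tma replicates or Mze replicate 2 (differences −0.35 to −0.81, adjusted p up to 0.0783).

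Pao-24 INT was the main rise. It was at 12.52, 12.26, 12.51 and 12.33 in Tma testes, against 11.31 and 11.38 in Mze testes, with Aca testes in between at 12.21, 11.40, 12.19 and 12.04. The difference of Tma minus Mze was 1.06 ± 0.09 (SE, adjusted p = 0.000474 by limma). Its LTR entry was at 6.998, 6.86, 7.04 and 6.996 in Tma testes, against 6.28 and 6.74 in Mze testes (difference 0.46 ± 0.13, adjusted p = 0.0397 by limma).

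Pao-13 LTR and Pao-47 INT were higher by 0.31 each (adjusted p of 0.0427 and 0.0397 by limma). The Tma values were 8.80, 8.99, 8.75 and 8.82 for Pao-13 LTR and 11.77, 11.91, 11.77 and 11.79 for Pao-47 INT, and the Mze values were 8.56 and 8.50 for Pao-13 LTR and 11.64 and 11.36 for Pao-47 INT. These 2 calls and that of Pao-24 LTR were lost with Tma replicates 1 and 3 averaged, at adjusted p of 0.0827, 0.0755 and 0.0893 for Pao-13 LTR, Pao-47 INT and Pao-24 LTR. They were also lost without any 1 of the 4 Tma replicates, and without Mze replicate 1 for Pao-24 LTR (difference 0.23), Mze replicate 2 for Pao-47 INT (difference 0.17) and either Mze replicate for Pao-13 LTR (differences 0.34 and 0.28).

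Counts of Pao calls in this comparison fell with any 1 Tma library left out. With Tma replicates 1 and 3 averaged, 1 Pao entry was called higher and 11 lower, beside 23 higher and 40 lower of all entries. Without Tma replicate 1 or 3 there were 1 higher and 11 lower, without replicate 2 there were 1 higher and 13 lower, and without replicate 4 there were 3 higher calls. Of all 554 entries, 211 had an unadjusted p under 0.05 with all libraries. Without Tma replicate 1, 2, 3 or 4 these were 169, 175, 167 and 208. At that p, 10 Pao entries were higher and 27 lower with all libraries. Without Tma replicate 1, 2, 3 or 4 there were 8 and 22, 9 and 26, 8 and 22, and 8 and 28.

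**Figure D3:**
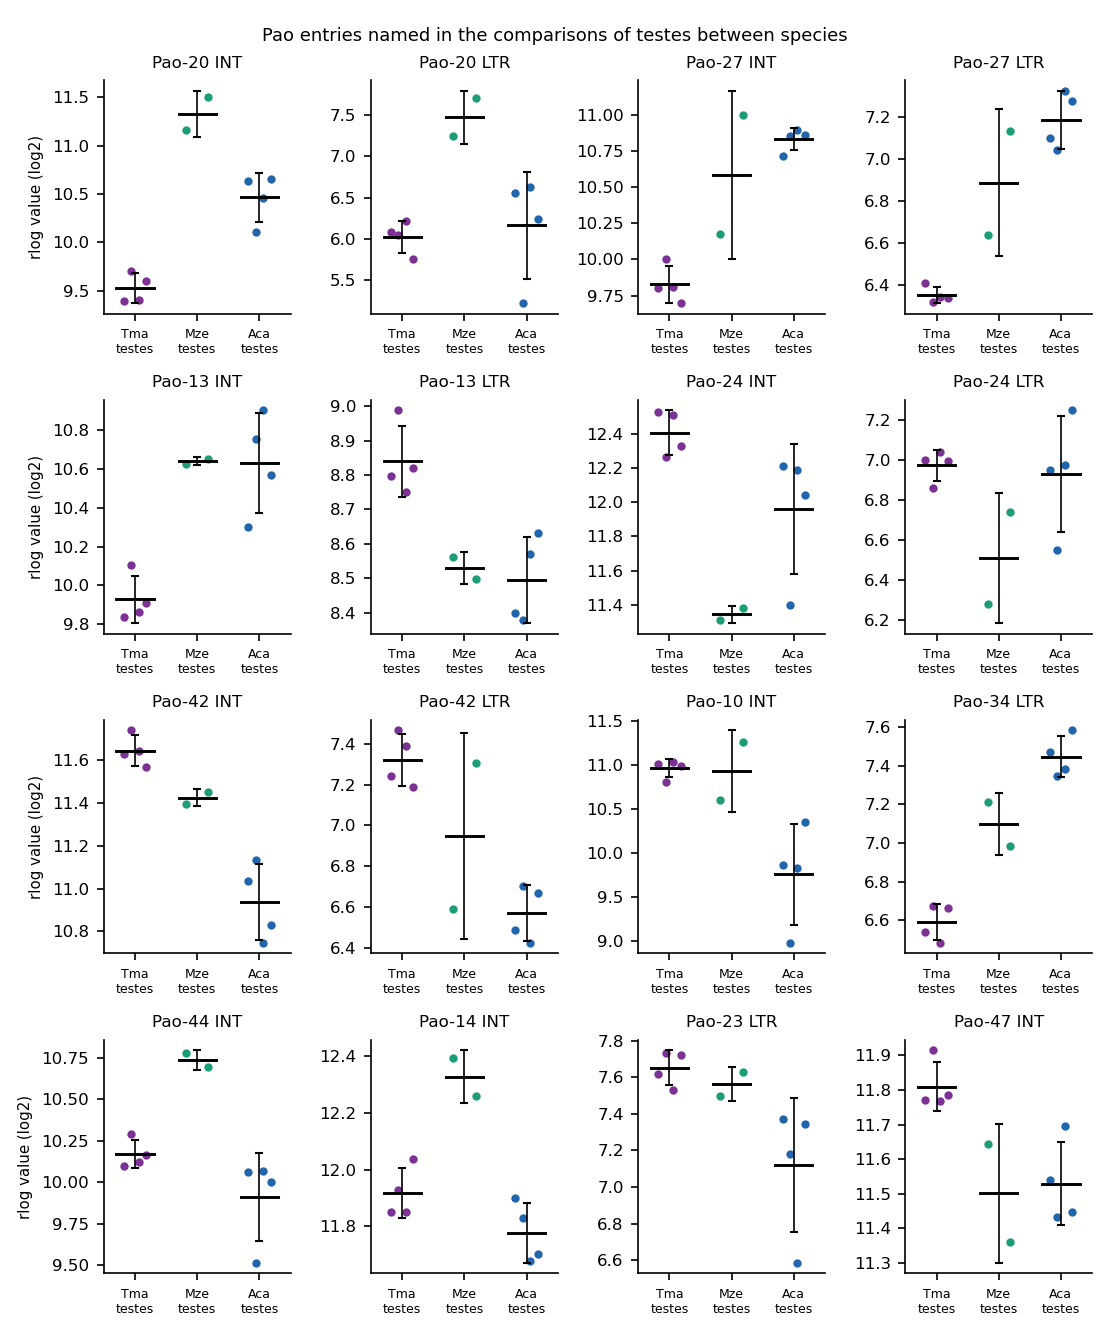
rlog values (log2, vertical axes, each with its own range) of Pao entries named in the comparisons between species, in Tma, Mze and Aca testes. Points are libraries, bars are means and whiskers are SDs; Pao-20 INT is highest in Mze and lowest in Tma, Pao-27 and Pao-34 are lowest in Tma, and Pao-13 INT is low where Pao-13 LTR is high.

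Setting the INT entry of a family against its LTR entry within a library removes the scaling of the library. In all 560 combinations of 40 Pao families and 14 libraries but 1, the INT entry had the higher value. The exception was Pao-32 in Tma testes replicate 4, at −0.06. The median INT minus LTR over Pao families was 3.14 in Tma testes, 3.20 in Mze testes, 3.12 in Aca testes, 3.15 in Aca ovaries and 2.66 in Aca muscle. In the 116 other families with both entries it was 2.98, 2.97, 3.09, 3.25 and 2.53 in the same order. Entries with few reads are shrunk more by the rlog transformation, and its part in differences between INT and LTR was not tested.

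INT and LTR entries of a family moved together only in part. Over the 39 Pao families with both entries tested, the log2 differences of INT and LTR correlated with r = 0.55 (rho = 0.50) for Aca testes minus ovaries, r = 0.61 (rho = 0.55) for Mze minus Aca testes, r = 0.58 (rho = 0.53) for Tma minus Aca testes and r = 0.70 (rho = 0.42) for Tma minus Mze testes. These are correlations across families that share the libraries, so they are given as a description. The other 115 families had r of 0.53, 0.51, 0.49 and 0.40 and rho of 0.50, 0.44, 0.41 and 0.44. Both differences had the same sign in 23, 24, 29 and 24 of the 39 Pao families and in 89, 84, 78 and 80 of the other 115. Between Aca testes and ovaries, both entries were called in 1 Pao family, beside 19 of the other 115, in the same direction in 1 and 17. Between Mze and Aca testes these were 1 Pao family and 3 others, all in the same direction. In the comparison of Tma with Aca testes, both entries were called in 10 Pao families, in the same direction in 7 and in opposite directions in Pao-4, Pao-13 and Pao-25, beside 20 of the other 115 families, in the same direction in 17. In the comparison of Tma with Mze testes both were called in 8 Pao families, in the same direction in 7 and in opposite directions in Pao-13, beside 9 and 8 of the other families.

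Between Aca testes and ovaries, INT minus LTR was higher in testes in 2 and lower in 4 of 39 Pao families by limma (adjusted p under 0.05 over 154 families), beside 27.3% of all families (4.55% higher, 22.7% lower). Pao-17 had the largest change. Its INT minus LTR was 2.16, 2.38, 2.12 and 2.17 in testes, against 2.85, 3.26 and 3.25 in ovaries, since its INT entry was lower and its LTR entry slightly higher in testes (difference −0.92 ± 0.15, adjusted p = 0.00143 by limma).

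Pao-10 followed, at 2.22, 2.18, 1.89 and 2.65 in testes, against 2.92, 2.92 and 3.04 in ovaries (difference −0.73 ± 0.17, adjusted p = 0.0105 by limma). Pao-40 was lower by −0.54 ± 0.16 (adjusted p = 0.0302 by limma), a call lost without testis replicate 1, 3 or 4 or ovary replicate 1 or 2 (differences −0.40 to −0.57, adjusted p up to 0.127). The fourth, Pao-39, was chosen after its values were seen and changed by −0.50.

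Pao-22 and Pao-45 changed the other way. INT minus LTR of Pao-22 was 3.10, 3.35, 3.23 and 3.19 in testes, against 2.29, 2.89 and 2.36 in ovaries (difference 0.70 ± 0.16, adjusted p = 0.0105 by limma). Pao-45 was at 2.81, 2.92, 2.84 and 2.63 in testes, against 2.17, 2.60 and 1.42 in ovaries (difference 0.74 ± 0.23, adjusted p = 0.0348 by limma). Ovary replicate 3 was the lowest there, where the LTR entry of Pao-45 was at 9.49, against 8.73 and 8.33 in the other ovaries. The call of Pao-45 passed only without ovary replicate 2 among the 7 fits that left out a library, with differences of 0.42 to 0.80 and adjusted p up to 0.0918 in the rest. Without testis replicate 1, 2 or 3 or ovary replicate 1 or 3, 1 family was called higher, and without ovary replicate 1, 2 were called lower. Of all families, 48 to 60 had an unadjusted p under 0.05 in these fits, against 56 with all libraries. At that p, 2 to 4 Pao families were higher and 6 to 10 lower, against 3 and 6 with all libraries.

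Between Mze and Aca testes, 1 of 39 Pao families changed, beside 3.9% of all families (3.25% higher, 0.649% lower). Pao-10 INT minus LTR was 3.03 and 3.43 in Mze testes, against 2.22, 2.18, 1.89 and 2.65 in Aca testes (difference 0.997 ± 0.195, adjusted p = 0.0297 by limma). Without Mze replicate 1 or 2 the difference was 1.19 or 0.80 and no Pao family passed (adjusted p of 0.0703 and 0.245 for Pao-10), with 8 and 3 Pao families at an unadjusted p under 0.05, beside 30 and 23 of all 154 families. Without Aca testis replicate 1, 3 families were called higher, with 33 of all 154 families at an unadjusted p under 0.05, as with all libraries.

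Between Tma and Aca testes, INT minus LTR was higher in 8 and lower in 8 of 39 Pao families, beside 39% of all families (16.9% higher, 22.1% lower). Pao-13 changed most. It was at 1.04, 1.12, 1.11 and 1.09 in Tma testes, against 1.90, 2.37, 2.33 and 1.93 in Aca testes (difference −1.05 ± 0.12, adjusted p = 9.11e-05 by limma). Its INT entry fell by 0.70 on the log2 scale and its LTR entry rose by 0.34, each with its own call.

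Pao-20 was at 3.31, 3.66, 3.19 and 3.85 in Tma testes, against 4.07, 4.89, 3.83 and 4.41 in Aca testes, with 1 value overlapping (difference −0.80 ± 0.21, adjusted p = 0.00896 by limma). Pao-25 was at 1.68, 1.59, 1.65 and 1.77 in Tma testes, against 2.30, 2.62, 2.08 and 2.76 in Aca testes (difference −0.77 ± 0.13, adjusted p = 0.000944 by limma). Its INT entry was lower by 0.50 and its LTR entry higher by 0.27.

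Higher in Tma were Pao-10 (difference 0.79 ± 0.14, adjusted p = 0.000944 by limma), Pao-37 (difference 0.71 ± 0.14, adjusted p = 0.00219 by limma) and Pao-21 (difference 0.41 ± 0.12, adjusted p = 0.0166 by limma). For Pao-37, INT minus LTR was 3.35, 3.25, 3.49 and 3.26 in Tma testes, against 2.82, 2.77, 2.80 and 2.12 in Aca testes. Its LTR entry was at 7.99, 8.11, 7.85 and 8.06 in Tma testes, against 8.51, 8.21, 8.72 and 8.94 in Aca testes, while its INT entry overlapped. The call of Pao-21 was lost without Tma replicate 4 (difference 0.38, adjusted p = 0.0615). Without Tma replicate 2 or 4, 5 families were called lower, and with replicates 1 and 3 averaged 7 were called higher and 7 lower. Of all 154 families, 64, 70 and 63 had an unadjusted p under 0.05 in these fits, against 68 with all libraries. At that p there were 9 higher and 9 lower, 10 and 8, and 8 and 8 Pao families, against 10 and 8 with all libraries.

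Between Tma and Mze testes, INT minus LTR was higher in 3 and lower in 6 of 39 Pao families, 23.1% against 24.7% of all families (8.44% higher, 16.2% lower). Pao-13 was at 1.04, 1.12, 1.11 and 1.09 in Tma testes, against 2.06 and 2.16 in Mze testes (difference −1.02 ± 0.09, adjusted p = 3.29e-05 by limma). Pao-25 was at 1.68, 1.59, 1.65 and 1.77 in Tma testes, against 2.30 and 2.45 in Mze testes (difference −0.70 ± 0.09, adjusted p = 0.000387 by limma). The comparisons of Tma with Mze and with Aca share the Tma libraries.

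Pao-32 was at 0.77, 0.54, 0.84 and −0.06 in Tma testes, against 1.17 and 1.36 in Mze testes (difference −0.74 ± 0.21, adjusted p = 0.0265 by limma), and missed the threshold without Mze replicate 2 (difference −0.65, adjusted p = 0.0951). Pao-24 (0.60 ± 0.12, adjusted p = 0.00496 by limma), Pao-43 (0.51 ± 0.10, adjusted p = 0.0038 by limma) and Pao-5 (0.29 ± 0.09, adjusted p = 0.0284 by limma) were higher. For Pao-24 the values were 5.53, 5.41, 5.47 and 5.33 in Tma testes and 5.03 and 4.64 in Mze testes. Pao-5 lost its call with Tma replicates 1 and 3 averaged (adjusted p = 0.0983) and without Tma replicate 1 or 3 or Mze replicate 1 (differences 0.27, 0.26 and 0.28). With Tma replicates 1 and 3 averaged, 2 Pao families were called higher and 5 lower. At an unadjusted p under 0.05, 3 were higher and 7 lower in that fit, against 3 and 10 with all libraries. Of all 154 families, 49 passed at that p in either direction, against 60 with all libraries.

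**Figure D4:**
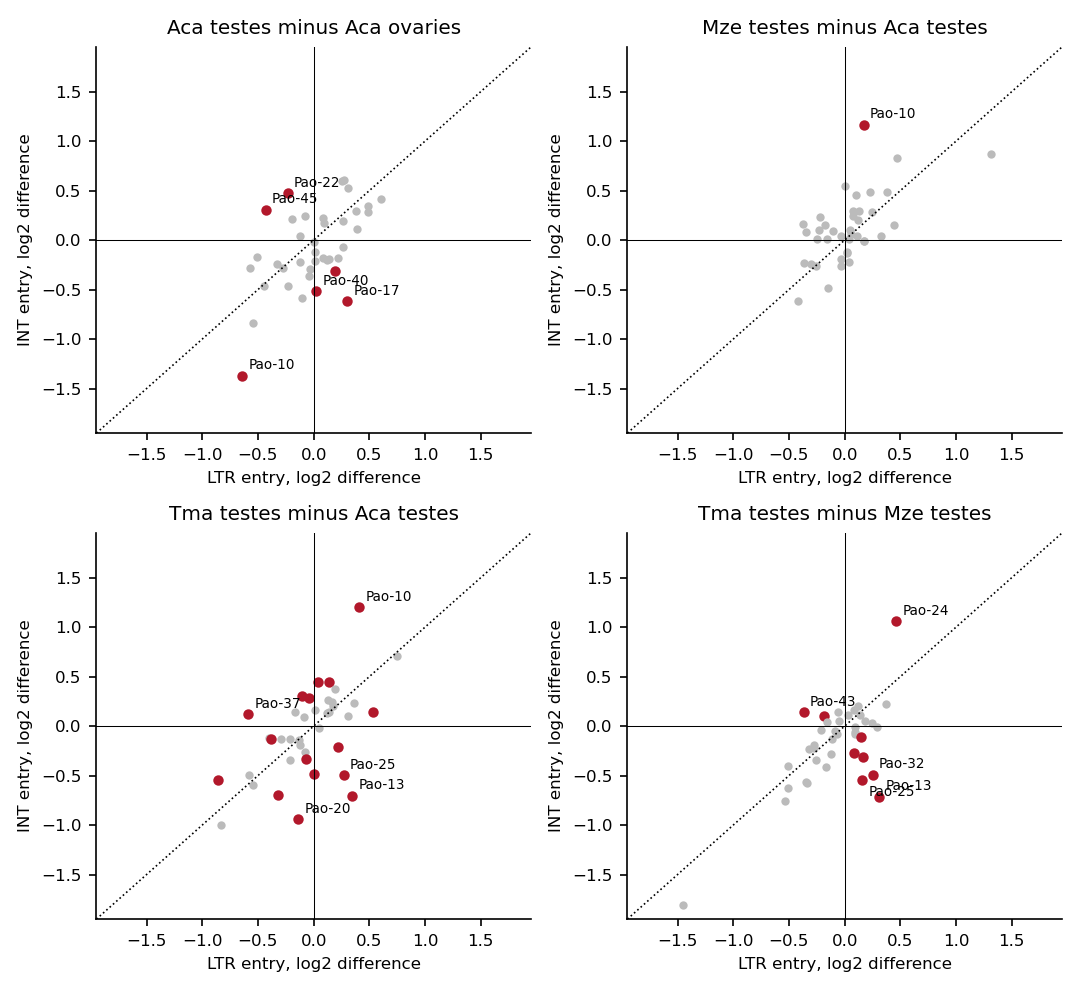
Log2 difference of the INT entry (vertical axis) against that of the LTR entry (horizontal axis) for 39 Pao families in 4 comparisons. Each point is a family, the dotted line marks equal differences, and red points are families whose INT minus LTR changed at adjusted p under 0.05 (limma), with names where the change is over 0.5; Pao-13 and Pao-25 lie in the lower right quadrant of both Tma panels.

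Muscle has 1 library, so differences from it have no replicate check and no test. In muscle, the study saw no clear set of sRNAs with the length and sequence marks of piRNAs. On the deposited scale, gonad values were mostly above muscle in INT entries. The median of Aca testes minus muscle was 0.63 over the 41 INT entries and 0.10 over the 40 LTR entries, and that of Aca ovaries minus muscle 0.66 and 0.14. This is not particular to Pao. In the 116 other families with both entries, median INT minus LTR was also lower in muscle (2.53) than in Aca testes (3.09) and Aca ovaries (3.25). Over all 83 Pao entries the medians were 0.27 for testes and 0.41 for ovaries, beside 0.04 and 0.05 over all 557 entries. Every testis library lay above muscle in 46 Pao entries and below it in 11, beside 41.5% above and 35.9% below of all entries. Every ovary library lay above muscle in 49 Pao entries and below it in 13, beside 43.3% above and 38.2% below. More than 1 higher than muscle on the log2 scale were 5 Pao entries in testes and 9 in ovaries, all INT, beside 4.67% and 8.44% of all entries, and more than 1 lower were 1 in testes and 3 in ovaries, beside 12.2% and 15.3%.

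Pao-40 INT, Pao-4 INT and Pao-25 INT were the highest in gonads relative to muscle. Pao-40 INT exceeded the muscle value of 12.39 by 1.02 in testes and 1.54 in ovaries. Pao-4 INT was at 12.48, 12.55, 12.51 and 12.47 in testes and at 12.28, 12.41 and 12.14 in ovaries, against 11.17 in muscle. Pao-25 INT exceeded the muscle value of 10.19 by 0.97 in testes and 1.55 in ovaries.

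Both entries of Pao-43 went the other way on the deposited scale and were lower in gonads, though all 83 Pao entries were higher in gonads than in muscle with scaling to all 24 to 35 nucleotide reads. Its INT entry was at 11.44, 11.23, 11.34 and 11.13 in testes and at 11.23, 11.28 and 11.00 in ovaries, against 12.42 in muscle, where it was the highest Pao entry. Its LTR entry was at 9.59, 9.33, 9.62 and 9.68 in testes and at 9.08, 9.13 and 9.28 in ovaries, against 10.51 in muscle. Pao-19 LTR was at 8.20, 7.81, 8.40 and 8.08 in testes and at 7.83, 7.88 and 7.88 in ovaries, against 8.999 in muscle. Under that scaling the differences of Pao-43 INT were 5.31 for testes and 3.83 for ovaries, and with scaling to the summed TE value they were −0.09 and −0.58. With scaling to all 24 to 35 nucleotide reads, the median Pao difference from muscle was 6.71 for testes and 5.50 for ovaries, and with scaling to the summed TE value it was 1.32 and 1.09.

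**Figure D5:**
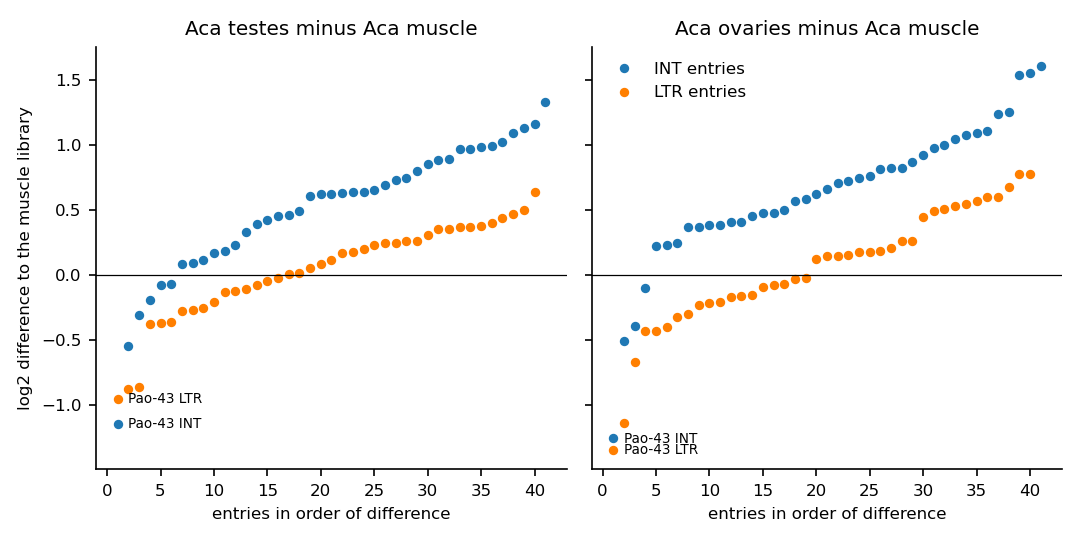
Differences of the mean of Aca testes (left) and of Aca ovaries (right) from the single Aca muscle library (log2, vertical axis) for the 41 INT and the 40 LTR entries of Pao, each set in order of its difference. On the deposited scale most INT entries lie above 0 and the LTR entries lie around it, with Pao-43 lowest in each set of both panels, while with scaling to all 24 to 35 nucleotide reads every entry lies above 0.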

How the data were processed

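sRNA libraries of wild-type Tma, Mze and Aca fish were analysed from the deposited table of rlog values (log2 scale) of the curated TE annotation. Per the submitters' processing notes and the methods of the study, the authors trimmed adapters with cutadapt 1.15, kept reads of 24 to 35 nucleotides, mapped them with STAR 2.5.4b to the Aca genome (fAstCal1.2) with up to 2 mismatches and 100 positions, a read with several positions being placed at random, counted them over TE families with featureCounts 1.6.0 and transformed the counts with DESeq2. Default-annotation and other-lake tables name no Pao family and were not used. No sequencing batch is given. The deposited values hold no counts, so the number of reads behind each value and its precision are unknown, and count models were not run. Read totals per library are given by the study.

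Pairs of groups were fitted with limma 3.58.1 (R 4.3.3), a linear model with mean trend, on entries whose mean reached 10 in linear units, adjusted by Benjamini-Hochberg over all 554 entries, and INT minus LTR over 154 families. The fit of single entries was tested on simulated data with independent libraries. That did not cover INT minus LTR or libraries as alike as Tma testes replicates 1 and 3. Shares used 2 to the power of the rlog value. Python 3.11.15, pandas 2.3.3 and matplotlib 3.10.9 made tables and figures. Named entries are up to 4 per direction with the largest called difference in each comparison (up to 3 families for INT minus LTR), the 3 highest and 3 lowest levels, and the 3 largest and 3 smallest differences from muscle. Members and lists were chosen with earlier results of these data known. Alternatives were no minimum or one of 100, 10 added on the linear scale, 2 other scalings, no mean trend, all gonad groups in 1 fit, a replicate block, single libraries left out and, added after seeing the data, Tma testes replicates 1 and 3 averaged. The totals of 24 to 35 nucleotide reads, and of reads assigned to TEs, used for 1 scaling are those of the study.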

Additional observations from a re-analysis of the deposited data

Results flagged for a closer look

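Among the 32 named entries, each of the 2 groups of 4 libraries was searched for a library far from the other 3, and 4 of the 64 sets held one, where chance flags about 1 in 20. In Aca testes, Pao-44 INT was at 9.51 in replicate 2, against 10.001 to 10.07 in the others. In Tma testes, Pao-10 INT was at 10.81 in replicate 2, against 10.99 to 11.03, Pao-47 INT was at 11.91 in replicate 2, against 11.77 to 11.79, and Pao-40 LTR was at 5.34 in replicate 4, against 5.09 to 5.13. The likeness of Tma replicates 1 and 3 narrows the range of the others in that group.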

How the results depend on the processing

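The 46 named results counted here are those called by limma, so the named differences from muscle are not among them. INT minus LTR was not rescaled. Of 673 values of these results under the alternatives, 573 kept their direction and their side of the threshold. A further 98 kept the direction but missed the threshold, and 2 reversed. These were Pao-17 INT (0.75) and Pao-25 INT (0.78) of Aca testes minus ovaries, with scaling to all 24 to 35 nucleotide reads. With that scaling, 9 of all 18 Pao calls of Aca testes minus ovaries and 7 of 26 of Tma minus Mze changed sign. Differences of testes from muscle also did, for Pao-43 INT (from −1.14 to 5.31), Pao-43 LTR (from −0.95 to 5.50) and Pao-19 LTR (from −0.88 to 5.57). That scaling sets each library by the share of its 24 to 35 nucleotide reads assigned to TEs. Why this share differs between libraries was not tested. Counts are given here as higher and lower Pao calls. Scaling to the summed TE value gave 32 and 2 for Aca testes minus ovaries and 3 and 2 for Mze minus Aca testes. Scaling to all reads gave 42 and 0 (54 and 0 at an unadjusted p under 0.05), 2 and 40 for Mze minus Aca, and 43 and 4 for Tma minus Mze. With all gonad groups in 1 fit there were 15 higher for Aca testes minus ovaries, 2 lower for Mze minus Aca, 10 higher for Tma minus Aca and 1 and 12 for Tma minus Mze, and for INT minus LTR 2 higher for Mze minus Aca and 3 higher for Tma minus Aca. Over all 554 entries that fit called 142 higher and 148 lower for Aca testes minus ovaries and 67 and 66 for Mze minus Aca. It called 82 and 81 for Tma minus Aca and 24 and 36 for Tma minus Mze. For INT minus LTR, 37 of all 154 families had an unadjusted p under 0.05 in it for Mze minus Aca, against 33 otherwise. For Tma minus Aca 64 did, against 68. A minimum of 100 gave 3 higher INT minus LTR calls for Mze minus Aca and 5 lower for Tma minus Aca. It left 120 and 121 families to test, of which 27 and 50 had an unadjusted p under 0.05. Without that minimum these were 33 and 68 of 154. With Tma replicates 1 and 3 averaged, Tma minus Mze had 1 and 11.

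Leaving out 1 library gave 3 to 7 higher and 9 to 13 lower calls for Aca testes minus ovaries, 0 to 5 and 0 to 1 for Mze minus Aca, 11 to 20 and 17 to 22 for Tma minus Aca, and 1 to 7 and 11 to 20 for Tma minus Mze. For INT minus LTR it gave 1 to 2 and 2 to 4, 0 to 3 and 0 to 0, 6 to 9 and 5 to 8, and 2 to 4 and 5 to 14 in the same order. Where it left 1 Mze library, that library was assumed to vary like the Aca or Tma libraries. For Aca testes minus ovaries, 248 to 279 of all entries had an unadjusted p under 0.05 with 1 library left out, against 286 otherwise. For Tma minus Aca these were 244 to 292, against 282. At that p, 6 to 16 Pao entries were higher and 13 to 18 lower for Aca testes minus ovaries, against 12 and 17. For Tma minus Aca there were 17 to 26 and 20 to 25, against 18 and 23. For INT minus LTR, 48 to 60 of all 154 families passed at that p for Aca testes minus ovaries, against 56. For Tma minus Aca 62 to 74 did, against 68. The median Pao difference from muscle was 0.24 to 0.36 for Aca testes and 0.36 to 0.40 for Aca ovaries with 1 library left out, 1.32 and 1.09 with scaling to the summed TE value, and 6.71 and 5.50 with scaling to all reads. Without NA-DNA-22 the Pao share was 10.4% in Tma testes, 10.4% in Aca testes, 10.9% in Aca ovaries and 5.68% in muscle.

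Replicate numbers of different groups share nothing stated in the labels. Between Tma and Aca testes, deviations of same-numbered libraries correlated with r of 0.02 to 0.18 over 4 pairs, against −0.21 to 0.19 for different numbers. Between Aca testes and ovaries they correlated with r of −0.10 to −0.05 over 3 pairs, against −0.06 to 0.13. The 2 Mze libraries deviate from their mean by equal and opposite amounts, so pairs with them cannot show a pairing. The replicate block gave 4 higher and 10 lower calls for Aca testes minus ovaries, 6 and 1 for Mze minus Aca, 17 and 22 for Tma minus Aca and 1 and 6 for Tma minus Mze. Over all 554 entries it gave 87 higher and 95 lower, 33 and 15, 124 and 118, and 5 and 16 in that order. For INT minus LTR the block gave 3 and 3, 1 and 1, 8 and 8, and 0 and 0 by limma (2 higher and 5 lower at an unadjusted p under 0.05, beside 31 of all 154 families) in that order. At that p, 49 of all 154 families passed with the block for Aca testes minus ovaries, 42 for Mze minus Aca and 67 for Tma minus Aca. Between Aca testes and ovaries, no library correlated best with its own number. Of the Tma libraries, replicates 1 and 4 did so with Aca testes, and replicates 2 and 3 did not.

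The deposited values shrink differences where reads are few, with muscle and LTR entries at the lowest levels. The number of reads behind each value is unknown.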
